A study of Arabidopsis thaliana with 20 samples.

Results

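*Δdella* seeds exposed to *P. aeruginosa* (*PAO1*) extract together with GA were compared with *Δdella* seeds on germination medium alone (MS). The rule that chose the samples was the group label, and the comparison covers 4 of the 20 libraries of the series, 2 biological replicates in each of the 2 groups. All *Δdella* seeds were quintuple mutants in the Col-0 ecotype (rgl2-/- rga-/- gai-/- rgl1-/- rgl3-/-), and WT seeds were Col-0. Every group was sampled after 20 hr. Seeds were plated on MS, on 5 µM paclobutrazol (PAC), on 5 µM PAC with 10 µM GA (PAC + GA), on 0.7 mg/ml of *PAO1* extract, or on that extract with 10 µM GA (*PAO1* extract + GA). The extract is lyophilized culture medium of the bacterium and is a mixture, and RNA came from whole seeds, embryo and endosperm together. No group had GA without PAC or extract, so a difference between MS and *PAO1* extract + GA cannot be divided between the extract and GA from this pair alone, and the other *Δdella* groups are given beside it.

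DELLA factors are nuclear repressors of germination and growth. GA, perceived by the GID1 receptors, leads to their destruction through the F-box protein SLY1, and PAC blocks GA synthesis. In seeds low in GA, DELLA factors keep abscisic acid (ABA) signalling active, and ABA with the transcription factors ABI3 and ABI5 maintains the embryonic programme of late embryogenesis abundant (LEA) and storage proteins. Seeds without DELLA factors lack this brake. The comparison asks which RNAs differ with the extract and GA in seeds that have no DELLA factors.

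The authors' table gives 1 FPKM value (fragments mapped per kilobase of transcript, scaled to the size of the library) per gene and group for 33557 genes, with the replicates of a group pooled. No SD and no test can therefore be given, and all FPKM values are the authors' values of a group. The values summed to 902861 FPKM on MS and 965376 on *PAO1* extract + GA, with 12274 and 12095 genes listed at 0, and the number of reads is unknown. Differences are on the log2(FPKM + 1) scale, which understates changes of low genes, and positive differences are higher with *PAO1* extract + GA. The labels were checked with the mutated genes: on MS, *RGL2* (AT3G03450) had 5.36 FPKM in *Δdella* and 170 in WT seeds. Pollen markers were not present (0 of 4 reached 1 FPKM). Of the 3 endosperm markers 2 reached 1 FPKM, *EPR1* and *EXPA2*, with 360 and 1394 FPKM on MS, and *MFT* did not. All 133 chloroplast and 146 mitochondrial genome genes are listed at 0 in every *Δdella* group.

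Of 17070 genes with at least 1 FPKM in 1 of the groups, 256 (1.5%) differed by at least 2-fold. They were 174 higher (1.02%) and 82 lower (0.48%) with *PAO1* extract + GA, and the median difference over all 17070 was -0.0003. The same rule set the scale in other pairs of *Δdella* groups. It took 0.794% of genes between MS and PAC, 0.741% between MS and PAC + GA, 0.806% between PAC and PAC + GA, and 0.789% between *PAO1* extract with and without GA. It took 1.51% between MS and *PAO1* extract, 1.58% between PAC + GA and *PAO1* extract + GA, and 1.45% between PAC and *PAO1* extract. Among these *Δdella* pairs, each one with extract on 1 side only thus had a share about as high as that of *PAO1* extract + GA against MS, and each one with extract on both sides or on neither had a lower share. At 5 FPKM or more in both groups, the SD of the log2 differences over genes was 0.20 for *PAO1* extract + GA, 0.22 for *PAO1* extract, 0.14 for PAC and 0.13 for PAC + GA, each relative to MS.

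**Figure D1:**
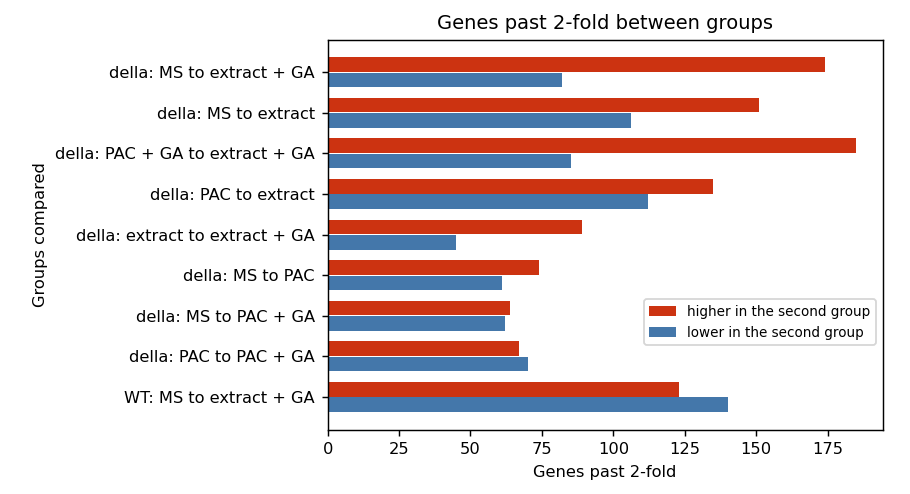
Number of genes past 2-fold (x axis) between pairs of groups (y axis), with red bars for genes higher and blue bars for genes lower in the second group named. *PAO1* extract + GA against MS in *Δdella* seeds has 174 higher and 82 lower genes, and MS against PAC + GA has 126 in all.

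Because every comparison rests on 1 value per group, the other *Δdella* groups were used to see which differences also held against them. With *PAO1* extract + GA, 94 of the 174 higher genes (0.551% of genes) were at least 2-fold above each of MS, PAC and PAC + GA, and 27 of the 82 lower genes (0.158%) were at least 2-fold below each. This stricter rule was added after the values were seen. Of the 94, 80 are protein-coding and 70 were also above the range of the groups without extract in seeds on *PAO1* extract alone. For the 27 lower genes these counts were 25 and 26, the latter below the range. Over all genes tested, 30.9% lay above that range and 30% below it with *PAO1* extract + GA. The same shares with *PAO1* extract alone were not computed. The 94 and 27 genes were chosen by their values on MS, PAC and PAC + GA, which also set that range. The counts of 70 and 26 are therefore descriptions. For 28 of the 256 genes MS itself stood at least 2-fold apart from each of the other *Δdella* groups. Among protein-coding genes at 1 FPKM or more in both groups, 41 of 70 higher and 20 of 35 lower genes met the stricter rule. In whole seeds, fewer cells of a type and less RNA per cell cannot be told apart.

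The largest rises included *AOX1A* (AT3G22370, chromosome 3 of TAIR10.1, 7906521 to 7908746), the alternative oxidase of the mitochondrial electron transport chain and a classical target of signals from impaired mitochondria. *AOX1A* had 2.46 FPKM on MS, 2.02 on PAC and 1.89 on PAC + GA, against 16.0 on *PAO1* extract and 17.59 on *PAO1* extract + GA. The groups with and without extract were far apart, and the difference from MS was 2.43. A set of genes almost silent without extract had the same pattern, and these were singled out after their values were seen. AT2G41730 (chromosome 2, 17409370 to 17410334) had 0.385, 0.73 and 0.26 FPKM on MS, PAC and PAC + GA, against 36.5 and 40.5 on *PAO1* extract and *PAO1* extract + GA. AT5G24640 had 0.0882, 0.261 and 0 FPKM in the same 3 groups, against 10.2 and 12.5 with extract. AT2G44130 is listed at 0 in all 3, against 15.6 and 14.2 FPKM with extract. For each of these genes the values with extract lay above every value without it.

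Several higher genes, singled out after their values were seen except for *TPX2*, encode enzymes or transporters of kinds known to handle foreign compounds. *CYP81D8* (AT4G37370), a cytochrome P450, had 0.912, 0.512 and 0.498 FPKM on MS, PAC and PAC + GA, against 5.16 on *PAO1* extract and 7.29 on *PAO1* extract + GA. *MO1* (AT4G15760), a monooxygenase, had 0.31, 0.249 and 0.197 FPKM without extract, against 5.89 and 6.52 with it. *ABCB11* (AT1G02520), an ABC transporter, had 1.06, 0.837 and 0.977 FPKM, against 5.41 and 5.63. All 3 genes were past 2-fold against each group without extract. *UGT74E2* (AT1G05680), a glucosyltransferase acting on an auxin, went from 9.67 FPKM on MS to 34.9, *SOT12* (AT2G03760), a sulfotransferase, from 11.4 to 37.8, and *OPR1* (AT1G76680), an oxophytodienoate reductase, from 16.2 to 39.2. *TPX2* (AT1G65970), a thioredoxin-dependent peroxidase, went from 1.26 FPKM to 7.09.

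Of the 28 tau-class glutathione transferases, which conjugate glutathione to electrophilic compounds, 21 reached 1 FPKM. *GSTU9* went from 1.62 FPKM on MS to 8.71 on *PAO1* extract + GA, *GSTU25* from 5.1 to 18.7, *GSTU1* from 4 to 9.36 and *GSTU24* from 19.7 to 40.7, and *GSTU17* (AT1G10370, *ERD9*) went from 12.4 to 4.51. These 4 higher and 1 lower genes were past 2-fold, also against each group without extract. Over all genes tested, 1.02% were past 2-fold higher and 0.48% lower than on MS. Against each group without extract these shares were 0.551% and 0.158%. Of the 21, 12 (57.1%) lay above every group without extract, against 30.9% of all genes tested, and 4 (19%) below, against 30%. The other 16 stayed within 2-fold, among them the most abundant, *GSTU19*, with 372 and 480 FPKM. The median over the 21 was 0.16, beside -0.0003 over all genes tested. *GSTU9* (chromosome 5, 25088527 to 25089626) had 1.84 and 2.03 FPKM on PAC and PAC + GA and 7.02 on *PAO1* extract.

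Some higher genes encode regulators, and of these *RHL41* was among the 12 largest rises and the others were singled out after their values were seen. *AGC2-1* (AT3G25250), a protein kinase of the AGC family linked to oxidative stress, had 0.284 FPKM on MS and 5.92 on *PAO1* extract + GA. *RHL41* (AT5G59820), a zinc finger factor of oxidative stress responses, had 4.85 and 19.5 FPKM. *MYB4* (AT4G38620), a repressor of phenylpropanoid genes, had 1.98, 1.53 and 1.94 FPKM on MS, PAC and PAC + GA, against 8.50 and 7.86 with extract. *CEJ1* (AT3G50260), a factor of the ERF family, went from 0.161 to 6.37 FPKM and *CNI1* (AT5G27420), a ubiquitin ligase, from 0.323 to 2.45. All 5 genes were past 2-fold against each group without extract. AT2G36220, with 1.52, 1.08 and 2.17 FPKM without extract and 7.29 and 7.94 with it, and AT3G63052, with 1.75, 2.68 and 3.28 against 7.94 and 9.65 FPKM, are among the 12 largest rises and had the same order.

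**Figure D2:**
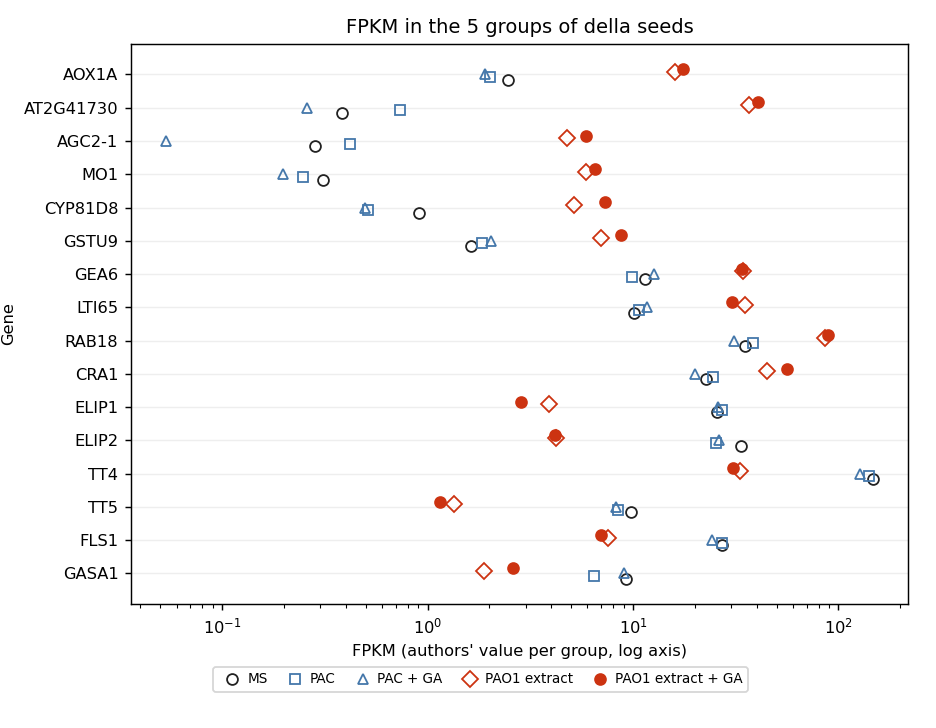
FPKM (x axis, log scale) of 16 genes (y axis) in the 5 groups of *Δdella* seeds, with 1 authors' value per point and the points offset slightly in height to keep them apart. Open black and blue symbols are groups without extract and red symbols are groups with extract. *AOX1A* sits at 1.89 to 2.46 FPKM without extract and at 16.0 and 17.59 with it, and *ELIP1* at 25.6 to 27.2 and at 3.91 and 2.86.

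The remaining members of the mitochondrial dysfunction list, which holds genes known to respond when the organelle is impaired, had smaller differences than *AOX1A*. Of 10 members, 7 reached 1 FPKM and the median was 0.60. Past 2-fold higher was 1 of the 7, against 1.02% of all genes tested. *NDB2*, an alternative NADH dehydrogenase, had 6.56 FPKM on MS, 5.06 on PAC and 5.58 on PAC + GA, against 10.4 and 10.4 with extract. *NAC13* (AT1G32870), a membrane-bound transcription factor that carries the signal to the nucleus, had 9.2, 9.38 and 8.92 FPKM, against 14.7 and 14.7. AT2G21640 had 11.8 FPKM on MS and 18.18 on *PAO1* extract + GA, and AT5G51440 had 24.7 and 41.6. All 4 lay above the values of every group without extract without reaching 2-fold. Of the 7, 5 (71.4%) lay above every group without extract, against 30.9% of all genes tested, and 2 lay below. *NAC017*, whose protein is activated by release from a membrane, had 28.8 and 28.1 FPKM, and the carrier gene *DIC2* was lower, with 10.4 and 7.45.

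The promoters were searched for the letters that such factors bind. NAC factors of this class recognise the mitochondrial dysfunction motif, which is CTTG, any 5 bases, then CAAG or CACG, and this search was added after the genes were seen. In the 500 bases before the annotated start of 26674 protein-coding genes of the TAIR10.1 RefSeq annotation, 2.09% held it on either strand, as did 1.65% of those tested. Of the 80 protein-coding genes higher against each group without extract, 13 held it (16.2%), as did 2 of the 25 lower ones (8%) and 4 of the 7 genes of the mitochondrial list at 1 FPKM or more. The windows of *AOX1A*, AT2G41730, *AGC2-1* and *UGT74E2* held no match, which says only that these letters are not in those windows. Promoter stretches from RefSeq are printed to show the letters in 5 of the 13 genes, chosen after their values were seen, with the motif in capitals. AT4G12735 (chr4:7494266-7494425, minus strand, 2 matches) is listed at 0 in the groups without extract and had 1.2 and 1.87 FPKM with it, and AT2G04050 (chr2:1339534-1339693, minus strand, 2 matches), a MATE efflux protein gene, had 0.599, 0.611 and 0.76 against 3.91 and 4.15 FPKM. AT5G24640 (chr5:8436192-8436351, plus strand), *CYP81D8* (chr4:17571744-17571903, minus strand) and *ABCB11* (chr1:523376-523535, plus strand) held 1 match each.
AT4G12735: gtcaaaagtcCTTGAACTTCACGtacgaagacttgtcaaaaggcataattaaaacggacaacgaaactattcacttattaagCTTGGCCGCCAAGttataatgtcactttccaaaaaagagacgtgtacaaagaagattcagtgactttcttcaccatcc
AT2G04050: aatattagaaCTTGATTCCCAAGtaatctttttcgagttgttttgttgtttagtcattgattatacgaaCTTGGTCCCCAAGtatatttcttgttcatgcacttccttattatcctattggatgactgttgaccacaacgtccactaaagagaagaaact
AT5G24640: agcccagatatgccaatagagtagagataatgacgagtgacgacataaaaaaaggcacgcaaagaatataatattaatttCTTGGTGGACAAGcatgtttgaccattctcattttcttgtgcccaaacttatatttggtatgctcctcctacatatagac
CYP81D8: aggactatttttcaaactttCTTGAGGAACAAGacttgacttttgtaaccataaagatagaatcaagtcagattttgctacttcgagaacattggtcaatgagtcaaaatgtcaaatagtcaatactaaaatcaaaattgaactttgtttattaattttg
ABCB11: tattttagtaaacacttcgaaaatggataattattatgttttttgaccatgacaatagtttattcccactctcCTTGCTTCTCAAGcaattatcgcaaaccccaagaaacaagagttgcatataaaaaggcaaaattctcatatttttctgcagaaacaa
Each stretch is 160 bases long and reads 5′ to 3′ on the strand of the gene. In the last 3 it ends at the base before the start.

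LEA proteins protect the dry embryo. Past 2-fold higher were 4 of the 20 members of their list, against 1.02% of all genes tested. All 20 reached 1 FPKM and had a positive difference, against 49.9% of all genes tested, 19 (95%) lay above every group without extract, against 30.9%, and the median was 0.75 against -0.0003. *EM6* (AT2G40170, *GEA6*, chromosome 2) had 11.5, 9.9 and 12.6 FPKM on MS, PAC and PAC + GA, against 34.2 on *PAO1* extract and 33.9 on *PAO1* extract + GA. *RAB18* (AT5G66400), a dehydrin, had 35, 38.6 and 31 FPKM against 86.2 and 89. These 2 were past 2-fold against each group without extract, and *EM1* (AT3G51810), with 8.48 and 20.8 FPKM, and AT3G15670, with 153 and 359, were so against MS only. Most members stopped short of 2-fold: the abundant *LEA7* (AT1G52690) had 388 FPKM on MS and 656 on *PAO1* extract + GA, *LEA18* had 379 and 669, and *LEA4-1* 309 and 556. *LEA7* had 487 FPKM on PAC and 480 on PAC + GA, above its value on MS. Relative to PAC + GA the median of the list was 0.64.

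Other genes of the ABA and desiccation response, singled out after their values were seen, had the same order. *LTI65* (AT5G52300), a classical ABA-induced gene, had 10.1, 10.7 and 11.7 FPKM without extract, against 35 and 30.5 with it, and the dehydrin gene *LTI30* (AT3G50970) had 1.31, 1.49 and 1.55 against 5.39 and 6.37. *PER1* (AT1G48130), a seed peroxiredoxin, had 12, 11.2 and 11.4 FPKM, against 30.4 and 28.3. All were past 2-fold against each group without extract. The regulators of this programme did not show differences of that size. Of 23 ABA and seed maturation regulators, 17 reached 1 FPKM, 0 were past 2-fold and the median was 0.03. *ABI5* had 31.8 FPKM on MS and 39.8 on *PAO1* extract + GA, *ABI3* had 84.6 and 78.4, and *ABI4* 131 and 133. The largest differences in the list were those of *CYP707A1*, an ABA-degrading hydroxylase, with 16.4, 16.1 and 15.5 FPKM without extract against 7.67 and 7.86 with it, and of *NCED9*, an ABA synthesis gene, with 1.17, 1.02 and 1.03 against 2.35 and 2.58. *CYP707A1* had a difference of -0.97, just short of 2-fold. The nearest genes on either side of the threshold, over all genes, were at 0.998 and -0.988 among those not counted.

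Storage protein genes were divided. Of 15 storage and oil body genes, 14 reached 1 FPKM and the median was 0.41. Relative to PAC and to PAC + GA the median was 0.13 and 0.56. Past 2-fold higher than on MS were 2 of the 14, against 1.02% of all genes tested. *CRA1* (AT5G44120), a cruciferin, had 22.7, 24.5 and 20.1 FPKM on MS, PAC and PAC + GA, against 44.8 and 56. The oleosin gene *OLEO1* (AT4G25140) had 10.6 FPKM on MS and 26 on *PAO1* extract + GA, with 16.1 on PAC. The 2S albumin genes *SESA1* to *SESA4* were lower, from 54.6 to 37.5 FPKM for *SESA3*, but their values on PAC + GA were lower still, at 27.9 for *SESA3*. The markers of seed maturation include *EM1*, *EM6*, *CRA1* and *OLEO1*, the 4 that were past 2-fold higher than on MS. The others were *CRU3* (12.6 FPKM on MS and 18.7 on *PAO1* extract + GA), *OLEO2* (12.4 and 17.8), *CLO1* (2.68 and 3.27) and *SESA2*. *SESA2* was lower (27.8 and 16.6). All 8 reached 1 FPKM, none was at 0, and their summed level was 85.4 to 118 FPKM without extract and 191 and 193 with it. This sum includes genes counted above and is not a separate result. The summed level of the 3 endosperm markers, of which 2 reached 1 FPKM, was 1753 to 1865 FPKM without extract and 1991 and 2108 with it. Their part in the results was not tested.

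Small heat shock proteins are chaperones that also accumulate in the late embryo. Of 13 heat shock genes, 9 reached 1 FPKM, 3 were past 2-fold, also against each group without extract, and the median was 0.82. All 9 had positive differences, against 49.9% of all genes tested, and lay above every group without extract, against 30.9%. Past 2-fold higher were 1.02% of all genes tested. *HSP17.6A* (AT5G12030) had 8.14, 7.85 and 4.76 FPKM without extract, against 17.43 and 20.6, *HSP17.6II* (AT5G12020) had 1.02, 0.678 and 0.61 against 4.03 and 3.65, and AT1G53540 had 1.87, 1.09 and 0.523 against 4.59 and 5.09. The heat shock factor gene *HSFA2* had 41.5 and 45.7 FPKM, and the chaperones *HSP101* and *HSP90.1* differed by 0.16 and 0.15.

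**Figure D3:**
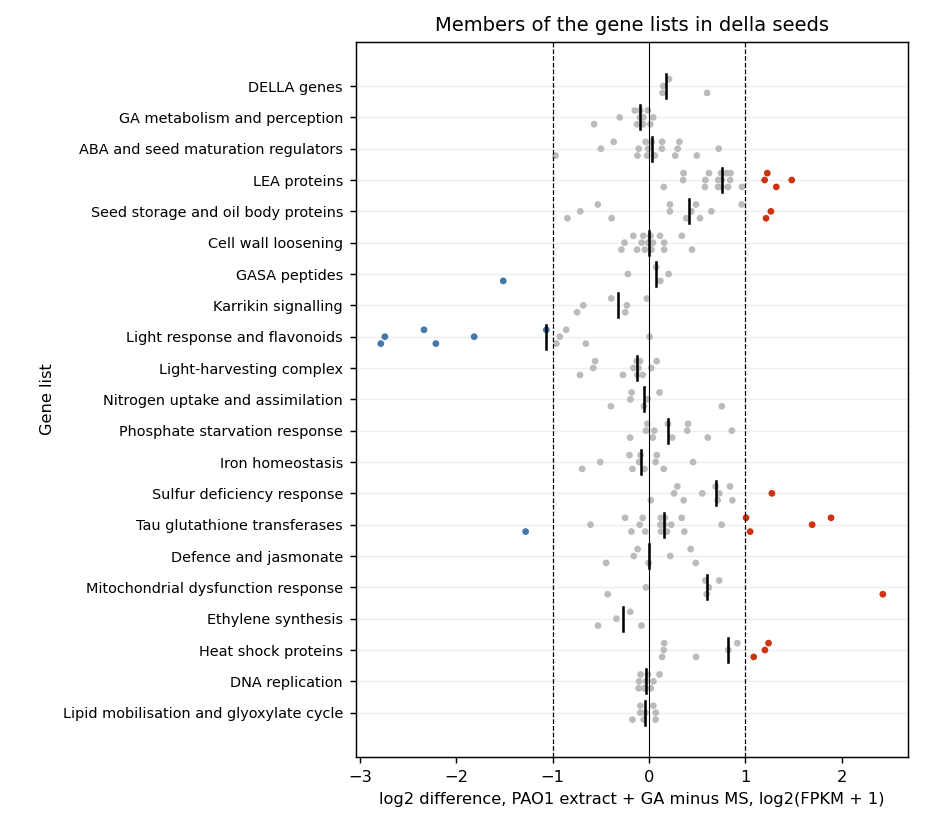
Log2 differences between *PAO1* extract + GA and MS (x axis, log2(FPKM + 1) scale) of the members at 1 FPKM or more in 21 gene lists (y axis), 1 point per gene. Red points are past 2-fold higher, blue points past 2-fold lower, the dashed lines mark 2-fold and the black bars the median of a list, which is 0.75 for LEA proteins and -1.07 for light response and flavonoids.

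Light-responsive and flavonoid genes made up the 5 largest falls among protein-coding genes at 1 FPKM or more in both groups. Of 12 members of the list, 11 reached 1 FPKM, 6 were past 2-fold lower and 0 were higher. Over all genes tested, 0.48% were past 2-fold lower and 1.02% higher. Of the 11, 10 (90.9%) lay below every group without extract, against 30% of all genes tested, and the median was -1.07. *ELIP1* (AT3G22840, chromosome 3, 8084405 to 8085669), an early light-induced protein of the thylakoid, had 25.6, 27.2 and 25.8 FPKM on MS, PAC and PAC + GA, against 3.91 on *PAO1* extract and 2.86 on *PAO1* extract + GA. *ELIP2* (AT4G14690) had 33.6, 25.3 and 26.1 FPKM against 4.22 and 4.16. The groups did not overlap, with differences from MS of -2.79 and -2.74. *CHS* (AT5G13930, *TT4*, chromosome 5, 4488476 to 4490264), chalcone synthase, the entry to flavonoid synthesis, had 147, 141 and 128 FPKM, against 33.3 and 30.8.

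The other enzymes of the flavonol branch were lower as well. *CHI* (AT3G55120, *TT5*), chalcone isomerase, had 9.83 FPKM on MS and 1.14 on *PAO1* extract + GA, and *FLS1* (AT5G08640), flavonol synthase, had 27.2 and 7. *TT7* (AT5G07990), the flavonoid hydroxylase, had 52.5, 46.6 and 47 FPKM without extract, against 18 and 17.3, and *CHIL* (AT5G05270), a chalcone isomerase-like protein that was singled out after its values were seen, had 27.6 and 9.48. Each of these 4 was past 2-fold against each group without extract. *F3H*, the flavanone hydroxylase, had 101 and 51.3 FPKM and a difference of -0.96, short of 2-fold. Among the regulators, *HYH* had 45.6 and 23.54 FPKM, *HY5* 46.3 and 29, and *MYB12* 3.14 and 1.28, all short of 2-fold, while *MYB111* had 1.7 and 1.71.

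Genes of the photosynthetic apparatus had smaller differences. Of 17 light-harvesting complex genes, 12 reached 1 FPKM, 0 were past 2-fold in either direction and the median was -0.12. Negative differences were held by 10 of the 12 (83.3%, against 50.1% of all genes tested), 8 lay below every group without extract (66.7%, against 30%), and the lowest difference was -0.72. *GUN5* (AT5G13630), the magnesium chelatase subunit of chlorophyll synthesis, had 8.93, 7.13 and 7.56 FPKM without extract, against 2.96 and 2.47 with it. *PORB* (AT4G27440), a protochlorophyllide reductase singled out after its values were seen, had 63.1 FPKM on MS and 29.5 on *PAO1* extract + GA, and *PSBS* (AT1G44575), a photoprotective subunit, 34.9 and 16.1. The 6 members of the karrikin list at 1 FPKM or more all had negative differences and lay below every group without extract, with a median of -0.32 and 0 past 2-fold. Of these *KUF1* had 8.48, 7.75 and 7.84 FPKM without extract, against 4.55 and 4.9, and *BBX20* (AT4G39070) had 18.7, 17.7 and 15.2 against 10.7 and 10.7.

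The G-box, CACGTG, contains the core of the ABA response element, ACGTG, and is bound both by bZIP factors of ABA signalling and by HY5. On either strand it stood in the 500 bases before the start of 9.45% of all protein-coding genes and of 10.9% of those tested. It was there in 17 of the 80 higher (21.2%) and 5 of the 25 lower (20%) genes against each group without extract, so most of these genes lacked it, in 13 of the 20 LEA genes (65%) and in 4 of the 11 light and flavonoid genes (36.4%). ACGTG was in 35.7% of all promoters, in 50% and 40% of the higher and lower genes, and in 19 of 20 LEA genes (95%). TACGTG, which also holds that core, was in 11.7%, 22.5% and 16%, and TGACG, the core of the as-1 element of detoxification genes, in 32%, 48.8% and 32%. TTGAC, the W-box core, was in 67.5%, 77.5% and 84%. CATGCA (17.1%, 13.8% and 12%), GNATATNC (10.7%, 12.5% and 24%) and GCCGCC (4.11%, 7.5% and 0%) were searched in the same way. A match is a description and not a site. Stretches of 160 bases are printed for *CHS* (chr5:4488233-4488392, plus strand), *ELIP1* (chr3:8085670-8085829, minus strand) and *EM6* (chr2:16780369-16780528, minus strand) to show the same letters, in capitals, before 2 genes that were lower and 1 that was higher.
CHS: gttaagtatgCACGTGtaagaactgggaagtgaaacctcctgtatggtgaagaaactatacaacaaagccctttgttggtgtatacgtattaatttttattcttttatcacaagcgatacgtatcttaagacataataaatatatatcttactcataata
ELIP1: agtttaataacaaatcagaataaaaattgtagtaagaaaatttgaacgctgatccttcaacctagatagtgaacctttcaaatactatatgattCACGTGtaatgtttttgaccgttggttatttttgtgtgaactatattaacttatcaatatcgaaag
EM6: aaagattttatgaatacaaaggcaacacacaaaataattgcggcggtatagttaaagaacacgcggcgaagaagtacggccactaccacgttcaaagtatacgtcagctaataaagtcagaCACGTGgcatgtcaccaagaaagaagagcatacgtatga
The capitals begin 233 bases before the start of *CHS*, 66 before that of *ELIP1* and 39 before that of *EM6*.

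A further set of lower genes had more RNA in *Δdella* than in WT seeds on MS. *GASA1* (AT1G75750), a GA-regulated peptide gene, had 9.29, 6.45 and 9.05 FPKM on MS, PAC and PAC + GA, against 1.88 on *PAO1* extract and 2.6 on *PAO1* extract + GA. In WT seeds it had 1.3 FPKM on MS. *XTH17* (AT1G65310) and *XTH24* (AT4G30270), wall-modifying xyloglucan enzymes, had 23.3 and 16.4 FPKM on MS and 7.99 and 5.62 on *PAO1* extract + GA, and *AGP2* (AT2G22470), an arabinogalactan protein gene, had 20.3 and 7.36. AT1G07690 had 12.5, 11.8 and 12 FPKM without extract, against 3.03 and 3.08. In WT seeds on MS these 4 genes had 4.2, 2.8, 4.69 and 0.304 FPKM. *XTH17*, *XTH24* and *AGP2* were singled out after their values were seen, and all 5 genes were past 2-fold against each group without extract.

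The lists of germination and growth genes had medians near that of all genes. Of 16 cell wall loosening genes at 1 FPKM or more, 0 were past 2-fold and the median was 0.00. *EXPA1* and *EXPA2*, the most abundant expansins of the list, had 1518 and 1394 FPKM on MS and 1472 and 1554 on *PAO1* extract + GA. The 9 DNA replication genes had a median of -0.03 and the 8 genes of lipid mobilisation and the glyoxylate cycle a median of -0.05, with 0 past 2-fold in both. Of the 5 GASA genes at 1 FPKM or more only *GASA1* was past 2-fold, and it was lower, as were 0.48% of all genes tested. *GASA6* had 1121 and 1216 FPKM.

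GA genes were likewise within 2-fold. Of 17 genes of GA metabolism and perception, 11 reached 1 FPKM and the median was -0.09. *GA3OX1*, which makes active GA, had 20.6, 21.6 and 20 FPKM on MS, PAC and PAC + GA, against 13.4 on *PAO1* extract and 13.5 on *PAO1* extract + GA, a difference of -0.57. The receptor genes *GID1A*, *GID1B* and *GID1C* differed by -0.06, -0.30 and -0.15. RNA from the mutated DELLA genes was still measured, with 21.8 and 25.3 FPKM for *RGA*, 9.91 and 11 for *GAI*, 14.3 and 16 for *RGL3*, and 5.36 and 8.65 for *RGL2*. *RGL2* had 4.91, 5.08 and 4.22 FPKM on PAC, PAC + GA and *PAO1* extract. None of the DELLA genes was past 2-fold.

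Nutrient and defence lists gave few genes past 2-fold. All 11 sulfur deficiency genes at 1 FPKM or more had positive differences, against 49.9% of all genes tested, with a median of 0.69, and 10 (90.9%) lay above every group without extract, against 30.9%. *LSU2* (AT5G24660) had 11.5, 16.7 and 15.2 FPKM on MS, PAC and PAC + GA, against 28 and 29.1, and was the 1 gene past 2-fold, against MS only. Over all genes tested, 1.02% were past 2-fold higher than on MS. *APR3*, which reduces activated sulfate, had 40.7 and 68.2 FPKM, and *SDI1* 31 and 56.4. Relative to PAC + GA the median of this list was 0.29. Of 11 phosphate starvation genes at 1 FPKM or more *PHO1*, a phosphate exporter, was the furthest, with 5.24, 4.46 and 4.14 FPKM against 10.4 and 10.3, and the median was 0.20. In the nitrogen list *NRT2.6* had 5.68, 4.37 and 5.39 FPKM against 10.1 and 10.3, and in the iron list *OPT3* had 7.5, 7.6 and 7.93 against 3.13 and 4.25. None of these 3 was past 2-fold, nor was any of the 7 genes each of the nitrogen and the defence list or of the 4 ethylene synthesis genes at 1 FPKM or more. Those 4 ethylene genes all had negative differences, against 50.1% of all genes tested, with a median of -0.27. All 4 lay below every group without extract, against 30% of all genes tested.

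*PAO1* extract alone gave values within 2-fold of those of *PAO1* extract + GA for most of the higher and lower genes described next. Some other genes named above were further apart than the medians given here, among them *SESA3* (60.4 and 37.5 FPKM) and *RGL2* (4.22 and 8.65). Of the 42 higher genes past 2-fold against each group without extract and at 1 FPKM or more on MS and on *PAO1* extract + GA, the difference between the latter and *PAO1* extract had a median of 0.14 and ran from -0.25 to 3.83, and 4 were past 2-fold. For the 20 lower genes it had a median of -0.04 and ran from -0.51 to 0.38. The rule that chose these genes used the values with *PAO1* extract + GA, so these are descriptions. The 4 genes, named here for that reason, were AT5G14560, with 0 FPKM on *PAO1* extract and 13.2 on *PAO1* extract + GA, the noncoding AT2G24592 (77.5 and 206), AT2G41082 (165 and 372) and AT3G01345 (3.59 and 10.7). None of these 4 belongs to a list. Their annotated lengths are 123, 483, 235 and 1612 bases, in that order, and the part of length in these values was not tested. AT5G14560 had 1.59, 5.01 and 0.116 FPKM on MS, PAC and PAC + GA.

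The comparison of PAC with *PAO1* extract in *Δdella* seeds shares no library with that of MS and *PAO1* extract + GA. Under the same rule 135 genes were higher (0.793%) and 112 lower (0.658%) on *PAO1* extract than on PAC. Of the 174 higher genes 72 were among the 135, which is 41.4% of the former and 53.3% of the latter, and 18 were among the 112 lower genes. Of the 82 lower genes 32 were among the 112, or 39% and 28.6%, and 5 were higher. The shared genes included *AOX1A*, *EM6*, *ELIP1*, *ELIP2*, *CHS* and *FLS1*. Both the shared and the opposite genes were above the background shares.

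The response of WT seeds to *PAO1* extract + GA, which likewise shares no library, counted 123 genes higher (0.734%) and 140 lower (0.835%) than on MS. Of the 174 genes higher in *Δdella* seeds 36 were higher in WT seeds (20.7%, or 29.3% of the 123) and 15 were lower, and of the 82 lower genes 27 were lower in WT seeds (32.9%, or 19.3% of the 140) and 8 were higher. Among the same 42 higher genes the median difference was 1.46 in *Δdella* and 0.49 in WT seeds, with the WT difference smaller in size in 39. For the 20 lower genes it was -1.44 and -1.06, smaller in size in WT seeds in 15. The genes were chosen on their *Δdella* values, so a smaller WT value is a description, and the difference between genotypes was not tested.

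The gene groups stood differently in WT seeds, which was not tested. *ELIP1* (43.7 and 6.92 FPKM on MS and *PAO1* extract + GA), *ELIP2* (33.4 and 5.21), *CHS* (181 and 43.9) and *FLS1* (30.1 and 6.98) were lower in WT seeds too, by log2 differences of -2.50, -2.47, -2.02 and -1.96, against -2.79, -2.74, -2.21 and -1.82 in *Δdella* seeds. *AOX1A* had 0.83 and 5.21 FPKM in WT seeds, and AT2G41730 had 0.905 and 7.49. Genes named above as higher in *Δdella* seeds included some that were not so in WT seeds. *EM6* had 34.3 FPKM on MS and 36.7 on *PAO1* extract + GA in WT seeds, *RAB18* 121 and 90, *CRA1* 367 and 209, and *HSP17.6A* 22.3 and 18.1. For these 4 genes the WT level on MS was above the *Δdella* level, which was 11.5, 35, 22.7 and 8.14 FPKM. *GASA1* had 1.3 and 3.37 FPKM in WT seeds, the opposite direction, and *MYB4* had 2.97 and 3.18. Other LEA genes differed as much in WT as in *Δdella* seeds, among them *LEA7*, with 175 and 425 FPKM and a WT difference of 1.27 against 0.76. Of the 20 LEA genes, 14 had a positive difference in WT seeds, 6 a negative one, and in 8 the WT difference was the larger. Over the LEA list the median was 0.75 in *Δdella* and 0.49 in WT seeds, over storage genes 0.41 and -0.91, over sulfur genes 0.69 and -0.44, and over light and flavonoid genes -1.07 and -1.45.

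**Figure D4:**
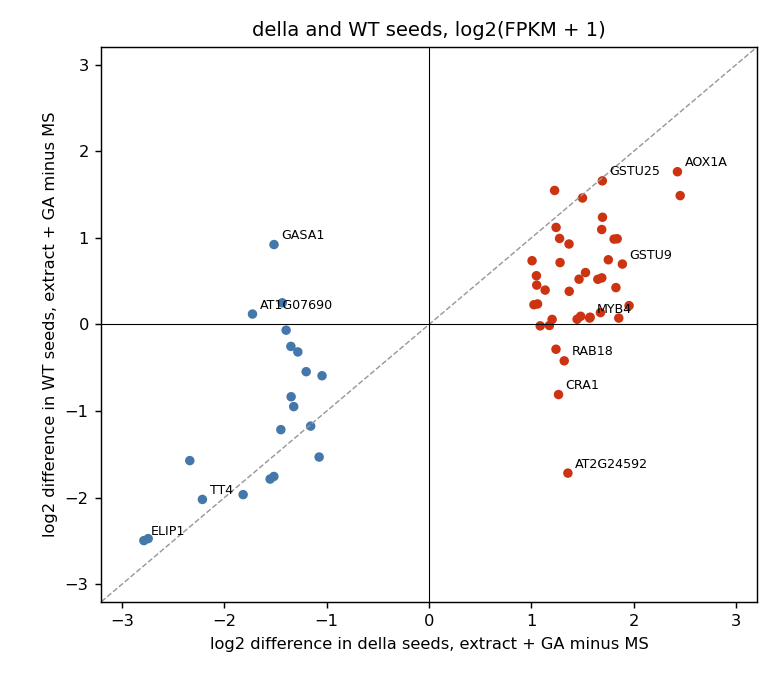
Log2 difference between *PAO1* extract + GA and MS in WT seeds (y axis) against that in *Δdella* seeds (x axis), log2(FPKM + 1) scale, for the 42 higher (red) and 20 lower (blue) genes past 2-fold against each *Δdella* group without extract and at 1 FPKM or more in both *Δdella* groups. The dashed line marks equal differences. For 39 of the 42 higher genes the WT difference was the smaller in size. AT1G14642, at 1.24 in *Δdella* and -3.27 in WT seeds, falls outside the y axis.

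A large part of the 256 genes outside the stricter rule are short, and some that met it are short too. Genes tested had a median length of 2426 bases and 1.5% were under 500 bases. Under the stricter rule, 21 of the 89 higher and 2 of the 26 lower genes with a known length were under 500 bases. The medians of these 89 and 26 genes were 1004 and 1428.5 bases. Listed at 0 on MS or on *PAO1* extract + GA were 28 of the 94 higher and 2 of the 27 lower genes under that rule. Of the genes counted but not past 2-fold against each group without extract, 54.8% were under 500 bases, with a median of 359.5, and of those listed at 0 in 1 of the groups 75%, with a median of 190. Of 45 small nucleolar RNA genes at 1 FPKM or more 16 were past 2-fold (35.6%), as were 12 of 28 miRNA genes (42.9%) and 4 of 4 tRNA genes, against 1.21% of protein-coding genes. The libraries were made from polyadenylated RNA and read as 50 bp, and the part of gene length in these values was not tested. Several of the largest differences among the protein-coding genes had this form. AT3G28193 (129 bases) had 5.07 FPKM on MS, 46.8 on PAC, 39.1 on PAC + GA, 45.5 on *PAO1* extract and 40.6 on *PAO1* extract + GA, so MS alone was apart. AT3G49551, AT5G41109, AT3G01572, AT1G74929, AT5G64401 and AT5G41071 were also among the 12 largest rises or falls, and none of the 6 met the stricter rule.

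Of the genes listed at 0 in 1 of the groups, 57 were among the 174 higher and 27 among the 82 lower ones. The 5 with the highest value on *PAO1* extract + GA among protein-coding genes were AT2G34186 (20.4 FPKM), AT3G01319 (19.4), AT2G44130 (14.2), AT2G11271 (13.1) and AT2G25990 (11.3). Only AT2G44130, a kelch repeat protein gene of ordinary length (chromosome 2, 18253610 to 18255054), was at 0 in every group without extract and well above 0 in both groups with extract, and it is listed at 0 in WT seeds on MS and on *PAO1* extract + GA. The 5 with the highest value on MS among those at 0 on *PAO1* extract + GA were AT4G23271 (40.9), AT4G31355 (20.5), AT1G53541 (8.67), AT5G66607 (7.74) and AT2G31981 (7.74). AT4G23271 had 23.9 and 11.8 FPKM on PAC and PAC + GA and 0 in both groups with extract, and the other 4 were at 0 in at least 1 further group without extract.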

How the data were processed

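Each group had 2 libraries from a stranded mRNA kit. For the FPKM values, the authors aligned 50 bp single reads against TAIR10 (TopHat) and ran Cuffdiff on Galaxy with both replicates of a group pooled. No software version, annotation release, strand setting or normalization is given in the sources used here. The deposited table holds 1 FPKM per gene and group, repeated over its 45 pairs of groups, and the authors' fold changes, test statistics, p-values and q-values, which were not used. Single-replicate values were not analysed here. The lowest FPKM of genes with 1 exon were not whole multiples of a step (29.2% and 23.2% within 0.1 of a whole number on MS and *PAO1* extract + GA), so reads were not recovered and depth is unknown.

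Groups were taken from the sample titles. A gene was counted at 1 FPKM or more in 1 of the groups and a log2 ratio, with a pseudocount of 1, of at least 2-fold, the fold named in the study's methods. The counting rule was tested on simulated data. The rule for named genes took the 12 largest rises and falls among protein-coding genes at 1 FPKM or more in both groups, the 5 largest among genes listed at 0 in 1 group, the DELLA genes and the members of 21 lists (310 genes), and genes named outside it are said to have been singled out after their values were seen. The members and lists were chosen with earlier results of these data known. Alternatives were pseudocounts of 0.1 and 5, other filters, median centring, 1.5-fold and 3-fold thresholds, other *Δdella* controls and protein-coding genes only. The rule against 3 controls and 2 motif searches were added after seeing the data. Names, positions, lengths and promoters came from the RefSeq annotation of TAIR10.1, to which 32798 of 33557 identifiers matched. Of 28643 genes alone in their region of the deposited table, 28642 overlapped their RefSeq gene. Python 3.11.15, numpy 2.4.6, pandas 2.3.3 and matplotlib 3.10.9 were used.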

Additional observations from a re-analysis of the deposited data

Results flagged for a closer look

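For 5 of the genes named by rule, the difference past 2-fold in *Δdella* seeds met a difference past 2-fold in the opposite direction in WT seeds. The difference between the genotypes was not tested, since each group has 1 value. Log2 differences between *PAO1* extract + GA and MS were 2.78 in *Δdella* and -2.53 in WT seeds for AT3G28193, -1.60 and 3.16 for AT1G74929, 4.35 and -2.94 for AT3G01319, 3.82 and -2.99 for AT2G11271, and -3.13 and 4.73 for AT5G66607. For 4 of the 5 genes at least 1 of the values compared is listed at 0, where the size of the difference depends on the 1 FPKM added. None is at 0 for AT1G74929, which had 37.6 and 11.7 FPKM on MS and *PAO1* extract + GA in *Δdella* seeds and 12.8 and 122 in WT seeds. AT3G28193, for example, is listed at 0 on *PAO1* extract + GA in WT seeds and had 40.6 FPKM there in *Δdella* seeds. All 5 genes are under 500 bases long.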

How the results depend on the processing

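No paired analysis was possible because the deposited table gives only pooled values of a group, and for the same reason no replicate could be left out. Against 174 higher and 82 lower genes, a pseudocount of 0.1 gave 253 and 166, one of 5 gave 73 and 31, at least 5 FPKM in 1 of the groups gave 114 and 51, at least 1 FPKM in both gave 78 and 44, a 1.5-fold threshold 380 and 294, and a 3-fold threshold 75 and 27. The rule added after seeing the data, past 2-fold against each of 3 *Δdella* groups without extract, gave 94 and 27. Median centring and no filter both left 174 and 82, PAC + GA as the control gave 185 and 85 (122 and 39 of them the same genes), and PAC gave 162 and 90 (108 and 38). Over all 256 genes the direction was opposite for 26 with PAC as the control, 5 of them past 2-fold, and for 14 with PAC + GA, 4 of them past 2-fold. Among the genes named by rule and the list members these were AT3G28193 (-0.20), AT3G49551 (-0.13), AT5G41109 (-0.47) and AT1G74929 (3.67) with PAC as the control and AT5G64401 (0.15) with PAC + GA. The cause was not tested. With 1 value per group of unknown depth, no difference has a replicate check.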

Other observations

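For some genes MS stood apart from the other *Δdella* groups. It was at least 2-fold from each of the other 4 for 28 of the 256 genes, 13 of them higher and 15 lower with *PAO1* extract + GA. *MAPR2* (AT2G24940), a membrane-associated progesterone binding protein gene, had 0.506 FPKM on MS and 9.68 to 14 FPKM in the other groups. Its neighbour in the annotation numbering, AT2G24945, had 11.4 FPKM on MS, 2.93 on PAC, 2.76 on PAC + GA, and 0.0103 and 0.0182 with extract. In WT seeds on MS they had 6.21 and 5.76 FPKM. In the RefSeq annotation the positions of *MAPR2* (10609417 to 10609900) and AT2G24945 (10610833 to 10612232) on chromosome 2 do not overlap. The annotation release and strand setting behind the authors' values are unknown, and whether the genes share reads there was not tested.

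Another set was apart in the opposite way. Of the 94 genes higher than each group without extract, 20 are listed at 0 in all 4 other *Δdella* groups, including *PAO1* extract, so that the value on *PAO1* extract + GA stands alone. The noncoding ones are among the highest, with 129 FPKM for the tRNA gene AT3G12585, 55.1 for the small nucleolar RNA gene AT5G58595, 20.9 for *MIR161* (AT1G48267) and 12.7 for *MIR823* (AT3G13724). *MIR390b* (AT5G58465) is instead at 0 in the groups without extract, with 6.4 FPKM on *PAO1* extract and 5.85 on *PAO1* extract + GA, and *MIR163* (AT1G66725) had 3, 2.92 and 2.3 FPKM without extract against 0.178 and 0.15 with it. These are reads on precursor genes, not measurements of the mature miRNAs. All of these genes were singled out after their values were seen.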
